A study of Homo sapiens with 6 samples.

Results

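The genes described here are 10 members of the BCL2 family, which set whether a cell starts apoptosis at its mitochondria. They are BCL2, BCL2L1, MCL1, BCL2L12, BAX, BAK1, BCL2L11, BID, BBC3 and BAD. They were taken as every transcript that GENCODE release 44 assigns to these genes, which gave 103 transcripts of 251612 matched in the files and 10 genes of 62252. All 10 genes received an adjusted p in the gene test.

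The cells were K562, an erythroleukemia line that carries the BCR-ABL fusion. Cells in both groups were transduced overnight with pLKO.1 lentivirus in the presence of polybrene at 8 µg/mL and were then kept in puromycin at 3 µg/mL for 4 days. The hairpin was directed at luciferase in the control group (shCtrl) and at PCBP1 in the knockdown group (shPCBP1), with 3 poly-A libraries in each. PCBP1 binds C-rich RNA, acts in splicing and RNA stability, and carries iron in the cytosol. One hairpin was used for PCBP1, and nothing in the labels says whether the libraries of a group came from separate transductions, so p-values measure the spread between these libraries, which may be technical.

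Libraries held between 67066747 and 140522444 estimated counts, and the 3 shPCBP1 libraries averaged fewer than the shCtrl libraries. PCBP1 itself had normalized counts of 40566, 38409 and 37799 in shCtrl against 6625, 7277 and 7221 in shPCBP1, a log2 fold change of -2.47 (SE 0.0439). All 10 erythroid markers examined were measured, with summed levels of 28996 to 34826 TPM in shCtrl and 33193 to 34625 TPM in shPCBP1, a sum that globins dominate. Of these 10, TFRC, TAL1 and HBG1 passed the gene test, all higher in shPCBP1 (log2 fold changes 0.35, 0.19 and 0.16), and their part in the results was not tested. The other 7 did not pass, with log2 fold changes from -0.15 for ALAS2 to 0.28 for HBZ. Among them, GATA1 (-0.07) was lower in shPCBP1 without overlap. Of 8 lymphoid and myeloid markers, LYZ averaged 48.9 TPM and the other 7 averaged between 0.0300 and 2.08 TPM, and their summed level was 48.5 to 55.3 TPM in shCtrl and 46.7 to 54.9 TPM in shPCBP1.

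The family works by binding between its own members. Guardians such as BCL2, the long form of BCL2L1 (BCL-xL) and MCL1 hold back the effectors BAX and BAK1, which otherwise form pores in the outer mitochondrial membrane and release cytochrome c. BH3-only proteins such as BCL2L11 (BIM), BID, BBC3 (PUMA) and BAD sense stress and block the guardians or activate the effectors. Many of these genes are spliced into forms with different or opposite roles, and in BCR-ABL leukemia cells BCL2L1 and MCL1 are known as survival genes and BCL2L11 as a death gene.

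Knockdown of PCBP1 left the family at similar total levels, and none of its genes changed by more than 2-fold. At an adjusted p under 0.05 (DESeq2 Wald test, Benjamini-Hochberg over all genes), BAX, BCL2L11 and BCL2L12 rose, MCL1 fell and the other 6 did not pass. That is 4 of 10, against 31.2% of all 17095 genes tested. The 3 rises stand against 17.7% of all genes and the 1 fall against 13.5%. None of the 10 met the thresholds of the study, which ask in addition for more than a 2-fold change and for a mean above 10 normalized counts, and which 1.37% of all genes met. The median log2 fold change was -0.02 over the members and 0.00187 over all genes with an adjusted p. With transcript length offsets, which correct counts for a shift in the mean length of a gene's transcripts, only BAX of these 10 passed.

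**Figure D1:**
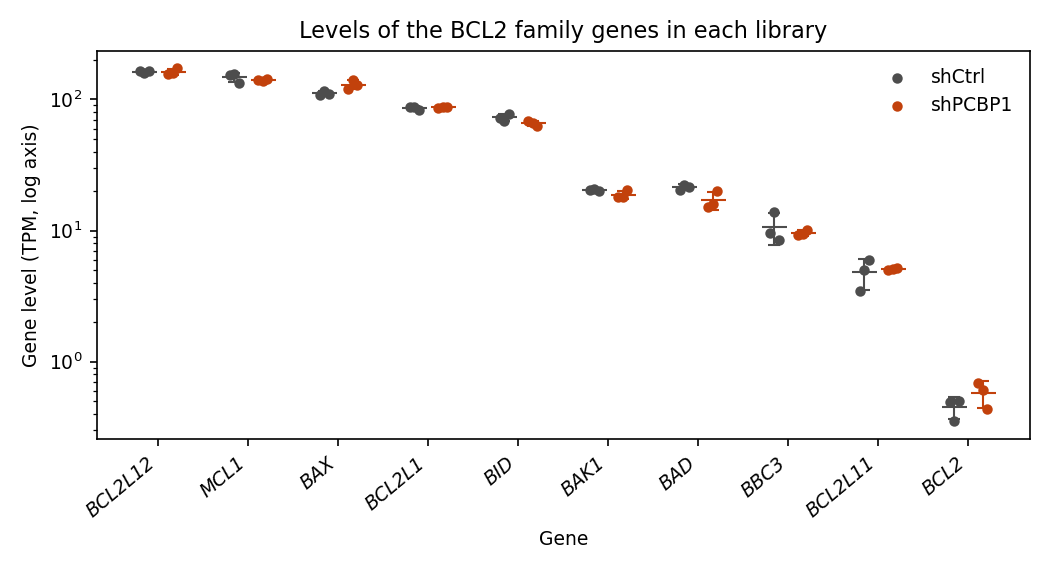
Level of each gene in TPM, a length-scaled relative abundance (log axis), in the 3 shCtrl and 3 shPCBP1 libraries; points are libraries, the short line is the mean and the bars are 1 SD. Genes are ordered from BCL2L12 near 163 TPM down to BCL2 near 0.449 TPM, and the groups lie close together for each gene.

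By level per length, the order over the 6 libraries ran from BCL2L12, MCL1 and BAX through BCL2L1, BID, BAK1, BAD and BBC3 to BCL2L11 and BCL2. The libraries of MCL1 and BAX overlapped (134.6 TPM at the lowest for MCL1 and 140.2 TPM at the highest for BAX), and so did those of BAK1 and BAD. BCL2L12 and MCL1 nearly met, with 157.5 TPM at the lowest for BCL2L12 and 157.3 TPM at the highest for MCL1. Among the guardians, MCL1 averaged 148.3 ± 12.1 TPM in shCtrl and BCL2L1 86.4 ± 2.29 TPM, while BCL2 averaged 0.449 ± 0.0848 TPM (SD, n = 3).

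**Figure D2:**
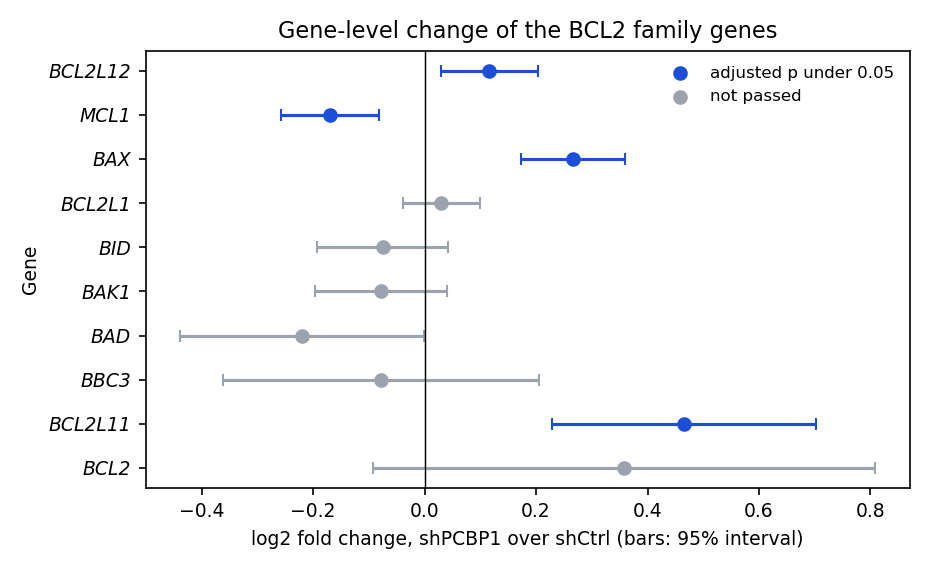
DESeq2 log2 fold change of each gene on normalized counts, shPCBP1 over shCtrl, with 95% intervals (1.96 standard errors); colored points passed an adjusted p under 0.05. BAX, BCL2L11 and BCL2L12 lie above 0 and MCL1 below it, and all 10 lie within 1 log2 unit of 0.

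Among the guardians, MCL1 (chromosome 1, 150560895 to 150579738, GRCh38, minus strand), a short-lived protein that binds BAK1 and BCL2L11, had normalized counts of 46443, 46645 and 41094 in shCtrl against 39873, 39072 and 40396 in shPCBP1. Each shPCBP1 library was below each shCtrl library, though shCtrl replicate 3 came close. MCL1 fell by 0.17 on the log2 scale (SE 0.0449, DESeq2 adjusted p 0.00107). With transcript length offsets the log2 fold change was -0.06 (adjusted p 0.547), and MCL1 did not pass. Its exons share 328 bases with the lncRNA ADAMTSL4-AS1 on the same strand, which averaged 0.372 TPM, and 43 bases with ADAMTSL4 on the opposite strand, which averaged 96.7 TPM and had a log2 fold change of -0.61 (adjusted p 1.17e-30).

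BCL2L1 (chromosome 20, 31664452 to 31723989, minus strand), the gene of BCL-xL, had normalized counts of 17696, 17371 and 16936 in shCtrl against 17781, 17851 and 17470 in shPCBP1. The groups overlapped, with a log2 difference of 0.03 (SE 0.0354, DESeq2 adjusted p 0.574) and a 95% interval of 0.973- to 1.07-fold. BCL2 (chromosome 18, 63123346 to 63320128, minus strand), the founding member of the family, was hardly expressed. Its normalized counts were 228.6, 160.8 and 215.4 in shCtrl and 318.2, 270.7 and 186.8 in shPCBP1, and the groups overlapped (log2 fold change 0.36, SE 0.230, DESeq2 adjusted p 0.250).

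BCL2L12 (chromosome 19, 49665142 to 49673916, plus strand), an atypical member described as an inhibitor of apoptosis, had normalized counts of 10146, 9414 and 9866 in shCtrl against 10412, 10487 and 11011 in shPCBP1. The groups did not overlap, and the log2 fold change was 0.12 (SE 0.0441, DESeq2 adjusted p 0.0304). The call was lost under edgeR (log2 fold change 0.102, adjusted p 0.115), with TMM factors (0.102, adjusted p 0.0601), with length offsets (0.0175, adjusted p 0.873) and without shCtrl replicate 2 or 3 or shPCBP1 replicate 2 or 3 (log2 fold changes 0.0887, 0.122, 0.126 and 0.0904, adjusted p 0.118, 0.0558, 0.0665 and 0.145). BCL2L12 shares 734 exonic bases at its 5′ end with IRF3 on the opposite strand, and whether counting used strand was not given in the sources used here. IRF3 had a log2 fold change of 0.10 (DESeq2 adjusted p 0.0718).

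Of the effectors, BAX (chromosome 19, 48954815 to 48961798, plus strand) rose and BAK1 did not pass. BAX had normalized counts of 5609, 5499 and 5871 in shCtrl against 6836, 6935 and 6657 in shPCBP1. The groups stood well apart, at 1.20-fold (95% interval 1.13 to 1.28), or 0.27 on the log2 scale (SE 0.0473, DESeq2 adjusted p 2.83e-07). On the TPM scale BAX averaged 111.7 ± 3.44 in shCtrl and 129.9 ± 9.72 in shPCBP1 (SD, n = 3), again without overlap. BAK1 (chromosome 6, 33572547 to 33580293, minus strand) was counted, after normalization, at 3390, 3315 and 3316 in shCtrl against 3100, 3029 and 3366 in shPCBP1, where replicate 3 lay among the controls (log2 fold change -0.08, SE 0.0604, DESeq2 adjusted p 0.353).

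Among the BH3-only genes, BCL2L11 (chromosome 2, 111119378 to 111168444, plus strand), whose product BIM binds all guardians, had normalized counts of 1078, 1102 and 1159 in shCtrl against 1683, 1747 and 1178 in shPCBP1. Replicates 1 and 2 of shPCBP1 were far above the controls, and replicate 3 was level with the highest of them. The log2 fold change was 0.47 (SE 0.121, DESeq2 adjusted p 0.000779). In TPM, BCL2L11 averaged 4.81 ± 1.27 in shCtrl and 5.09 ± 0.0941 in shPCBP1 (SD, n = 3) with overlap, and with transcript length offsets it did not pass (log2 fold change 0.11, adjusted p 0.713). Its last exon shares 727 bases with the long noncoding RNA MIR4435-2HG on the opposite strand, which averaged 98.3 TPM and had a log2 fold change of 0.09 (adjusted p 0.131).

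BID (chromosome 22, 17734138 to 17774770, minus strand), the link from death receptors to mitochondria once caspase 8 cuts it, had normalized counts of 5581, 5088 and 5930 in shCtrl against 5431, 5284 and 5054 in shPCBP1 (log2 fold change -0.07, SE 0.0599, DESeq2 adjusted p 0.375). On the TPM scale BID was at 72.7, 69.0 and 77.9 in shCtrl and at 68.6, 66.6 and 62.2 in shPCBP1, lower without overlap. BAD (chromosome 11, 64269830 to 64284704, minus strand), a sensor of growth factor signals, had 922.5, 844.4 and 905.4 in shCtrl against 751.1, 690.9 and 858.1 in shPCBP1. Its log2 fold change was -0.22 (SE 0.112, DESeq2 adjusted p 0.125), and it passed without shPCBP1 replicate 3 (-0.31, adjusted p 0.0305). In TPM it was at 20.4, 22.4 and 21.7 in shCtrl and at 15.1, 15.9 and 20.02 in shPCBP1, lower without overlap, and with transcript length offsets the log2 fold change was -0.32 (adjusted p 0.0574). BAD shares 404 exonic bases with GPR137 on the opposite strand.

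BBC3 (chromosome 19, 47220822 to 47232766, minus strand), which encodes the stress sensor PUMA, had normalized counts of 1073, 1565 and 914.6 in shCtrl against 1096, 1099 and 1161 in shPCBP1. The shCtrl libraries spread more widely than the groups differed (log2 fold change -0.08, SE 0.145, DESeq2 adjusted p 0.745). Without shCtrl replicate 2, its highest library, the log2 fold change was 0.17 (adjusted p 0.260).

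In the DESeq2 test on transcripts, 69 of the 103 received an adjusted p and 12 passed, with 7 higher and 5 lower, against 9.27% of all 105847 transcripts tested. They belonged to BAX (4), BCL2L12 (2), BID (2), MCL1 (2), BCL2L1 (1) and BBC3 (1). The error of Salmon in dividing reads between similar transcripts is not in this fit. Under edgeR's quasi-likelihood test, MCL1-208 was the only 1 of the 12 to pass, and 0.544% of all transcripts did.

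Complete coding transcripts were then grouped into forms, each holding the transcripts with the same coding sequence, and the TPM share of each form among all forms of its gene was compared. Of 43 forms, 27 from 8 genes could be tested, and limma called 0 at an adjusted p under 0.05 with a share difference over 5 percentage points, where 0.413% of all 23237 forms were called. At an unadjusted p under 0.05 there were 7, among them the long and short forms of both BCL2L1 and BID. The share of all forms at that p is not given here, so this count has no background beside it. The shares of 12 of the 27 did not overlap between groups, against 19.2% of all forms. Forms of 1 gene depend on each other, since their shares sum to 100%.

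Of the 27 forms, BAX alpha showed the largest shift in share. This canonical 192-residue form (BAX-202) made up 40.2%, 42.5% and 39.7% of the TPM of complete coding forms in shCtrl and 25.7%, 27.0% and 28.1% in shPCBP1. BAX-208, a coding transcript outside the forms, is not in that total. The groups stood apart by 13.9 percentage points, with a log2 ratio to the other forms lower by 0.90 (limma difference -0.90, SE 0.147, adjusted p 0.0959). This form was called with a pseudocount of 1 TPM (adjusted p 0.0217) or a mean count of at least 50 (0.0446), and with no other setting tried.

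While the gene as a whole rose, the transcript of BAX alpha fell. BAX-202 had 31.1, 37.1 and 33.9 TPM in shCtrl and 24.1, 27.8 and 29.4 TPM in shPCBP1, and fell by 0.29 on the log2 scale (SE 0.102, DESeq2 adjusted p 0.0451). That adjusted p rose above 0.05, to between 0.0996 and 0.193, without shCtrl replicate 2 or 3 or without shPCBP1 replicate 1 or 2. BAX-201, the 218-residue BAX beta, keeps the last intron and so ends in another C terminus in place of the membrane anchor of BAX alpha. It had 32.4, 32.0 and 36.1 TPM in shCtrl and 45.0, 45.3 and 44.7 TPM in shPCBP1, all well above the controls (log2 fold change 0.46, SE 0.0760, DESeq2 adjusted p 1.49e-07). Its share of the complete coding forms was 41.9%, 36.6% and 42.3% in shCtrl and 48.0%, 43.9% and 42.7% in shPCBP1. On that scale the groups nearly met, and BAX beta was not called (limma difference 0.27, SE 0.179, adjusted p 0.610).

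BAX-212 and BAX-203, which leave out coding exons, rose as well. BAX-212, which joins exon 1 to exon 4, ends inside the last intron and encodes 140 residues, had 6.05, 8.23 and 5.77 TPM in shCtrl and 11.3, 16.9 and 16.6 TPM in shPCBP1 (log2 fold change 1.22, SE 0.274, DESeq2 adjusted p 0.000261). BAX-203, a 143-residue form without exon 3, had 7.78, 10.0 and 9.55 TPM in shCtrl and 13.4, 13.2 and 14.0 TPM in shPCBP1 (log2 fold change 0.63, SE 0.181, DESeq2 adjusted p 0.00923). BAX-203 did not pass when any 1 library other than shCtrl replicate 2 was left out, with adjusted p-values from 0.0523 to 0.0777. BAX-208 and BAX-211, which also skip exons, varied several-fold between libraries of a group and did not pass. BAX-208 averaged 7.42 TPM in shCtrl and 4.85 in shPCBP1, and BAX-211 8.20 and 11.8. BAX-208 skips exons 2 and 3 as BAX-212 does. Their sum overlapped between groups, at 17.6, 17.5 and 7.19 TPM in shCtrl and 17.4, 19.6 and 22.2 TPM in shPCBP1. BAX-212 has no base or junction of its own, and the division of reads between them was not tested.

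The 5′ splice site of the last BAX intron, which BAX alpha uses, which BAX beta reads through to the last exon and past which BAX-212 ends within the intron, is shown with the first bases of the intron in capitals. It lies at chr19:48960900-48960929 on the plus strand of GRCh38.
BAX last intron: gaccagggtggttggGTgagactcctcaag
The 50 bases before exons 2 and 3 of BAX are shown because BAX-212 leaves out both, with runs of at least 4 C in capitals. They lie at chr19:48955498-48955547 and chr19:48955637-48955686.
BAX exon 2: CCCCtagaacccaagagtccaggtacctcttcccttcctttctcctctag
BAX exon 3: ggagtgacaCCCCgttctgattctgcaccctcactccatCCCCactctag
Each of these windows was 42.0% C, and 10.5% of 185179 such windows before internal exons of coding transcripts were at least as rich in C. The letters CCCC, searched on the transcribed strand, were in both and in 24.2% of all windows.

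**Figure D3:**
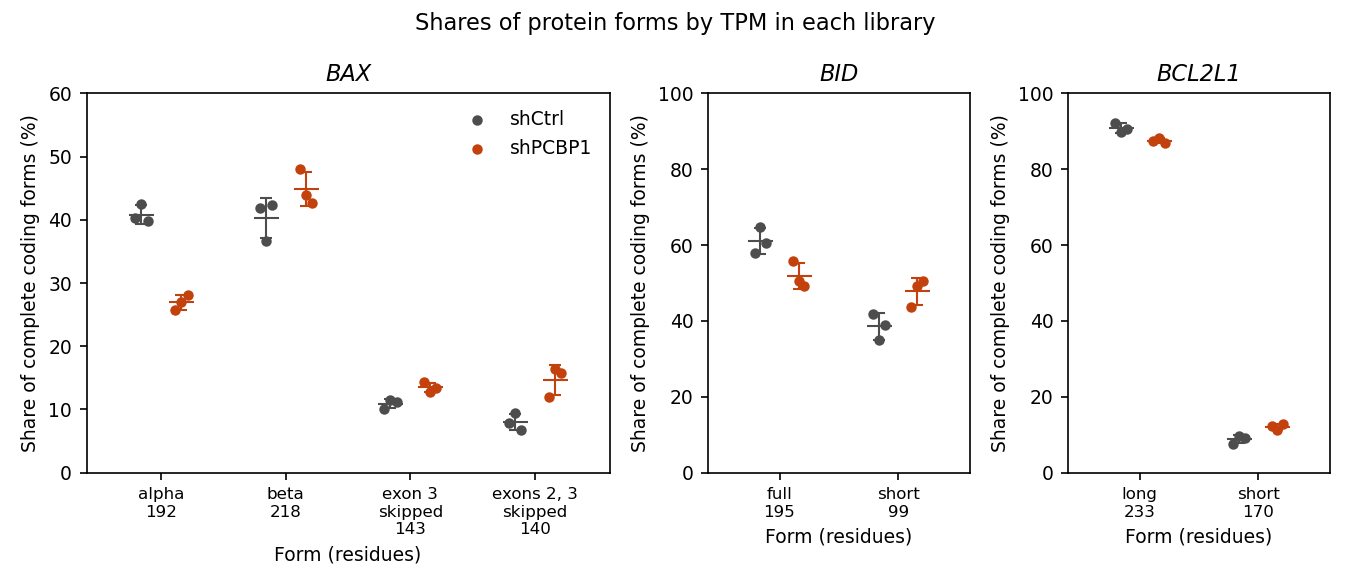
Share of each form in the TPM of all complete coding forms of its gene (percent), for BAX, BID and BCL2L1, with the number of residues under each form. Points are libraries, the short line is the mean and the bars are 1 SD. BAX alpha lies near 40.8% in shCtrl and 26.9% in shPCBP1, and the short forms of BID and BCL2L1 lie higher in shPCBP1.

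The forms of BID also differed in share between groups without being called. Its full 195-residue form, which caspase 8 can cut, held 58.0%, 64.8% and 60.7% of the coding TPM in shCtrl and 55.7%, 50.6% and 49.2% in shPCBP1. The difference was -9.30 percentage points without overlap (limma adjusted p 0.355). A 99-residue form that starts further downstream held 41.9%, 34.9% and 38.9% in shCtrl and 43.8%, 49.1% and 50.6% in shPCBP1, also without overlap (limma adjusted p 0.366).

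At the level of transcripts, BID-211, which encodes the full form, had 15.6, 15.0 and 17.0 TPM in shCtrl and 12.7, 12.9 and 12.7 TPM in shPCBP1. It fell by 0.31 on the log2 scale (SE 0.0815, DESeq2 adjusted p 0.00262). BID-203, which lacks exons 2 and 3 and encodes the short form, had 3.73, 2.99 and 3.46 TPM in shCtrl and 6.48, 5.90 and 6.76 TPM in shPCBP1. Its log2 fold change was 0.91 (SE 0.135, DESeq2 adjusted p 1.68e-09). The most abundant transcripts of the 2 forms, BID-208 and BID-204, did not pass (log2 fold changes -0.38 and 0.02, adjusted p 0.154 and 0.981).

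In BCL2L1, neither the total nor the share of a form passed its test. BCL-xL and the shorter BCL-xS come from 2 5′ splice sites in the same exon that lie 189 bases, or 63 codons, apart. BCL-xS lacks part of the groove that binds BH3 domains and is known to promote death. The sites are shown with the first bases of each intron in capitals, at chr20:31721640-31721669 for the long form and chr20:31721829-31721858 for the short form, both on the minus strand.
BCL2L1 long form: gagaacggcggctggGTaagaaccaagccc
BCL2L1 short form: cagagctttgaacagGTagtgaatgaactc

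The long form made up 92.4%, 90.2% and 90.8% of long plus short TPM in shCtrl and 87.7%, 88.7% and 87.2% in shPCBP1. The short form was thus 8.87% ± 1.14 in shCtrl and 12.2% ± 0.791 in shPCBP1 (SD, n = 3), higher in each shPCBP1 library than in each shCtrl library. The long share differed by -3.28 percentage points (exact permutation test over libraries, two-sided, p 0.1, the smallest that 3 against 3 allows). Set against all other complete coding forms, the long form had a limma adjusted p of 0.335. The short form is estimated from BCL2L1-202 and BCL2L1-205, which went opposite ways without passing. BCL2L1-202 had 6.50, 6.58 and 4.90 TPM in shCtrl and 5.33, 6.38 and 3.92 TPM in shPCBP1 (log2 fold change -0.17, DESeq2 adjusted p 0.804). BCL2L1-205 was listed at 0, 1.93 and 2.65 TPM in shCtrl and at 5.08, 3.31 and 7.19 TPM in shPCBP1 (log2 fold change 1.79, DESeq2 adjusted p 0.744). Neither has a base or junction of its own. BCL2L1-204, a minor transcript of the long form with its own first junction, had 0.595, 0.480 and 0.689 TPM in shCtrl and 1.87, 1.22 and 2.82 TPM in shPCBP1 (log2 fold change 1.76, SE 0.368, DESeq2 adjusted p 7.06e-05). The lncRNA ABALON lies over 1735 bases of BCL2L1 exons on the opposite strand and averaged 0.248 TPM.

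Among its coding forms, MCL1 was almost wholly in its long, anti-apoptotic form in both groups. The long form made up 95.9%, 96.5% and 95.9% of long plus short TPM in shCtrl and 96.9%, 96.7% and 97.4% in shPCBP1, a difference of 0.878 percentage points (exact permutation test, two-sided, p 0.1, the smallest possible; limma adjusted p 0.531). The short form (MCL1-201, 271 residues), which skips exon 2 and is known to promote death, had 5.04, 4.44 and 4.51 TPM in shCtrl and 3.61, 3.81 and 3.19 TPM in shPCBP1. Each shPCBP1 library was below each shCtrl library, but MCL1-201 did not pass (log2 fold change -0.34, DESeq2 adjusted p 0.159).

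The long form itself was divided differently between its transcripts. MCL1-202, the canonical transcript with the long last exon, had 118.3, 122.7 and 106.2 TPM in shCtrl and 96.8, 102.1 and 104.3 TPM in shPCBP1, and fell by 0.19 on the log2 scale (SE 0.0459, DESeq2 adjusted p 0.000743). MCL1-208, which has the same coding sequence but joins a splice site just past the stop codon to a 116-base exon at 150563102 to 150563217, stood at 0 in each shCtrl library and had 15.7, 11.1 and 13.1 TPM in shPCBP1. Its estimated counts were 1220, 794.5 and 808.4 there (DESeq2 adjusted p 2.27e-24).

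The last exon of MCL1-208 lies outside MCL1-202, and the only other MCL1 transcript with that exon, MCL1-204, had at most 18.9 estimated counts in a library. MCL1-208 is listed at 0 in shCtrl, and the part that Salmon's division of reads had in that 0 was not tested. The sum of both transcripts was 118.3, 122.7 and 106.2 TPM in shCtrl and 112.5, 113.2 and 117.4 TPM in shPCBP1, with overlap. The retained intron transcripts MCL1-206 and MCL1-203 did not pass (log2 fold changes -0.37 and -0.23, adjusted p 0.101 and 0.0832).

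**Figure D4:**
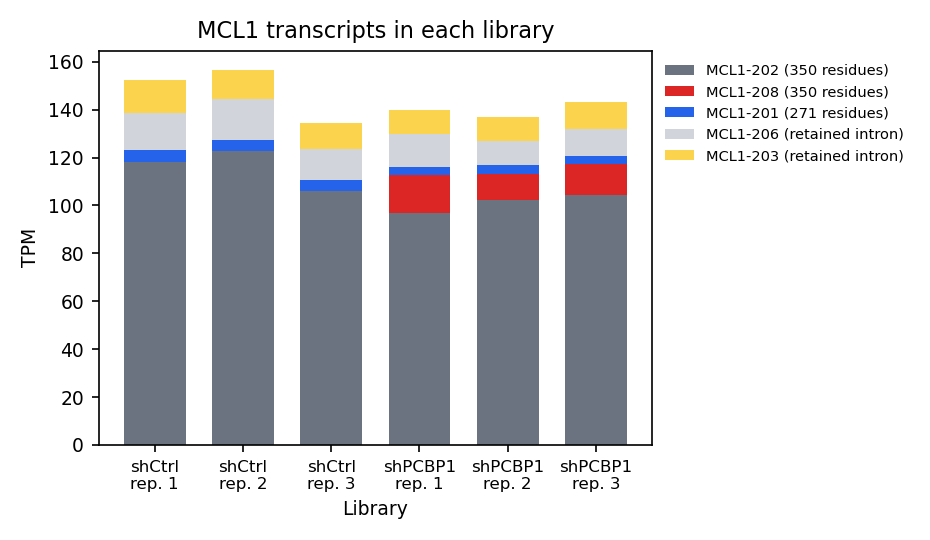
TPM of the 5 MCL1 transcripts averaging at least 1 TPM, stacked for each of the 6 libraries (rep. is the replicate number). MCL1-208 appears in the shPCBP1 libraries at 11.1 to 15.7 TPM and is at 0 in shCtrl, while the short MCL1-201 is thin in all 6.

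The forms of BCL2L11 overlapped between groups. The 198-residue form (BCL2L11-204, BIM-EL) held 90.0%, 78.6% and 70.1% of the TPM of the complete forms that could be compared, which are this form and BCL2L11-201, in shCtrl and 85.9%, 86.7% and 54.8% in shPCBP1. The groups overlapped, with shPCBP1 replicate 3 below each control, and the difference of -3.80 percentage points (exact permutation test, two-sided, p 0.8; limma adjusted p 0.957) turned to 6.68 without shPCBP1 replicate 3 and to 1.42 without shCtrl replicate 1. Of the TPM of the whole gene, BCL2L11-204 held 72.5%, 51.1% and 41.7% in shCtrl and 78.4%, 82.0% and 46.6% in shPCBP1. BCL2L11-205, a coding transcript left out of the forms because the files hold another version of it, was at 0, 1.42 and 0.978 TPM in shCtrl and is listed at 0 in shPCBP1. BCL2L11-204 itself had 2.49, 2.57 and 2.48 TPM in shCtrl and 3.92, 4.18 and 2.42 TPM in shPCBP1 (log2 fold change 0.48, DESeq2 adjusted p 0.175), so the high libraries of the gene are those of this transcript. The shorter 138-residue form (BCL2L11-201, BIM-L), which leaves out a stretch that holds phosphorylation sites of ERK, ranged from 0.276 to 1.06 TPM in shCtrl and from 0.644 to 1.99 TPM in shPCBP1.

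BCL2L12 differed most in its classes of transcripts. BCL2L12-207, annotated as a target of nonsense-mediated decay, had 24.0, 28.7 and 27.8 TPM in shCtrl and 7.74, 12.1 and 17.3 TPM in shPCBP1, and fell by 1.06 on the log2 scale (SE 0.274, DESeq2 adjusted p 0.00244). BCL2L12-201, which encodes the full 250 residues, had 113.7, 107.7 and 110.1 TPM in shCtrl and 123.9, 126.6 and 131.5 TPM in shPCBP1, and rose by 0.26 (SE 0.0438, DESeq2 adjusted p 2.92e-07). The groups did not overlap for either transcript, while the TPM of the whole gene was 162.9 ± 3.51 in shCtrl and 162.7 ± 8.61 in shPCBP1 (SD, n = 3).

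The share of TPM in protein-coding transcripts was also compared for each gene. In BCL2L12, BCL2L12-201 is the main coding transcript and BCL2L12-207 the largest noncoding one. The coding share of this gene thus largely restates their values and is not a separate result. For BCL2L12 it was 78.5%, 76.0% and 75.3% in shCtrl and 89.4%, 88.0% and 83.5% in shPCBP1, 10.4 percentage points higher (exact permutation test, two-sided, p 0.1, the smallest possible). For MCL1 it was 81.0%, 81.1% and 82.3% in shCtrl and 83.0%, 85.5% and 84.2% in shPCBP1 (p 0.1 by the same exact test). These 2 of 10 genes had groups that did not overlap. Of 8979 genes with at least 1 TPM in each library and noncoding transcripts measured, 20.6% did so, a set that leaves out BCL2 and BAK1. BAX stayed at 81.2% ± 2.86 and 81.3% ± 5.26 (SD, n = 3), while BAK1 was at 100% throughout.

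The transcripts of BCL2L12 that fell and rose differ by the 143-base exon 3 (chromosome 19, 49667019 to 49667161). Its inclusion, taken as the TPM of transcripts with the exon over that of transcripts with or without it, was 79.1%, 76.0% and 77.1% in shCtrl and 90.5%, 88.8% and 86.0% in shPCBP1. The groups stood 11.0 percentage points apart. BCL2L12-201 held most of the including TPM and BCL2L12-207 most of the skipping TPM in each library. The inclusion of this exon thus largely restates the values of these transcripts and is not a separate result. Skipping transcripts summed to 31.4, 34.9 and 34.0 TPM in shCtrl and 13.7, 16.5 and 22.0 TPM in shPCBP1, while including transcripts summed to 118.7, 110.7 and 114.0 TPM and 130.8, 130.4 and 134.7 TPM. Without this exon, the frame of BCL2L12-207 and BCL2L12-204 closes after 92 residues. The shared stretch with IRF3 ends at 49665875, before this exon.

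Cassette exons were examined in the same way in all genes with at least 1 TPM of each kind. Of 11 such exons in 4 of the 10 genes, 5 did not overlap between groups, with 3 more included (the 143-base exon of BCL2L12, a version of it that is 140 bases long and is set against the same skipping transcripts, and exon 2 of MCL1) and 2 more skipped (exons 2 and 3 of BID). Over all genes, 25.5% of 12502 exons did not overlap, 1983 more skipped and 1204 more included. Exon 2 of BID (70 bases, 17750105 to 17750174), which holds the start codon of the full form, was included at 58.9%, 65.7% and 62.0% in shCtrl and 57.6%, 52.4% and 50.6% in shPCBP1. Exon 3 of BID (211 bases, 17743803 to 17744013) was included at 94.1%, 95.1% and 94.7% in shCtrl and 89.2%, 89.6% and 87.9% in shPCBP1. Exons 2 and 3 of BAX overlapped between groups.

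**Figure D5:**
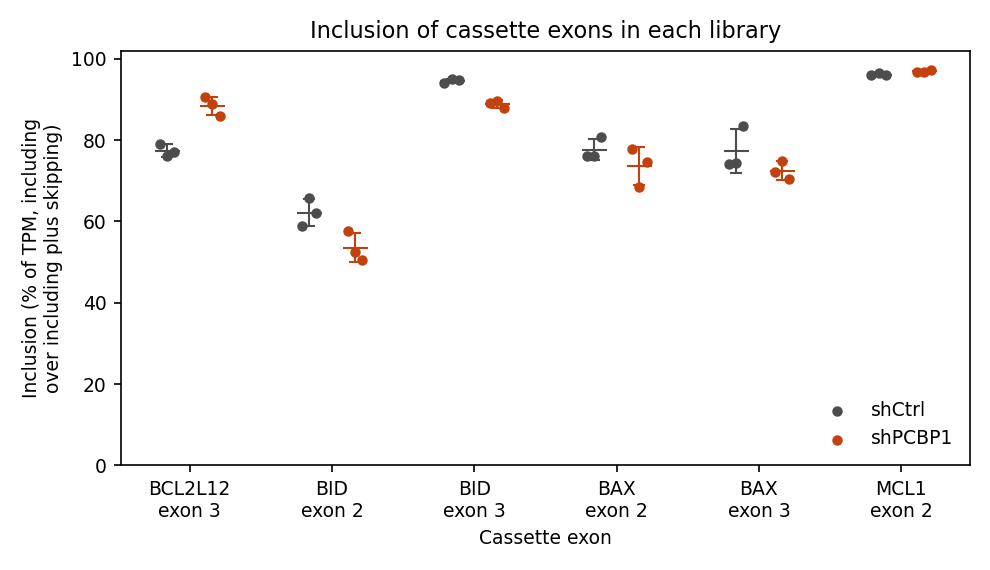
Inclusion of 6 cassette exons (percent of TPM, including transcripts over including plus skipping transcripts) in each library; points are libraries, the short line is the mean and the bars are 1 SD. Exon 3 of BCL2L12 lies between 76.0% and 79.1% in shCtrl and between 86.0% and 90.5% in shPCBP1, and exons 2 and 3 of BID lie lower in shPCBP1.

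The 50 bases before each exon whose inclusion did not overlap between groups are printed, since PCBP1 binds runs of C. Exon 2 of MCL1 is among them with a difference of only 0.879 percentage points. Runs of at least 4 C are in capitals. BCL2L12 exon 3 follows chr19:49666969-49667018 on the plus strand, and the others lie on the minus strand at chr22:17750175-17750224 (BID exon 2), chr22:17744014-17744063 (BID exon 3) and chr1:150578492-150578541 (MCL1 exon 2).
BCL2L12 exon 3: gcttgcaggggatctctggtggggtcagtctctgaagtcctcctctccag
BID exon 2: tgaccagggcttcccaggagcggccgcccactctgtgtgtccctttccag
BID exon 3: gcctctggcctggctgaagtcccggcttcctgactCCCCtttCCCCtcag
MCL1 exon 2: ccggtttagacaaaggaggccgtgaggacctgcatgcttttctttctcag
The windows before exons 2 and 3 of BID, the exons more skipped, were 38% and 44% C, and 17.1% and 8.0% of all such windows were at least as rich. The windows before the exons more included were 28.0% C for BCL2L12 and 24.0% C for MCL1, against a median of 22.0% over all windows. The letters CCCC were in the window of BID exon 3 and in none of the other 3. The windows before exons 2 and 3 of BAX, whose inclusion overlapped between groups, were each 42.0% C and held CCCC. Whether these bases had a part in any difference was not tested.

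Of the remaining genes, BBC3-206, a minor transcript with a retained intron, had 0.410, 0.891 and 0.932 TPM in shCtrl and 0.138, 0.299 and 0.257 TPM in shPCBP1, and fell by 1.64 on the log2 scale (SE 0.528, DESeq2 adjusted p 0.0249). It did not pass without shCtrl replicate 2 or 3 or shPCBP1 replicate 1 or 3 (adjusted p 0.0660 to 0.169). BBC3-203, which encodes PUMA, had 7.37, 11.2 and 5.73 TPM in shCtrl and 7.31, 7.36 and 7.42 TPM in shPCBP1 (DESeq2 adjusted p 0.983). BAK1 was made almost wholly as BAK1-201 (98.2% of its TPM, log2 fold change -0.10, DESeq2 adjusted p 0.358). BAD-201, the main BAD transcript, had 13.2, 13.0 and 13.2 TPM in shCtrl and 10.3, 9.0 and 11.8 TPM in shPCBP1, lower in each library without passing (log2 fold change -0.28, adjusted p 0.158).

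Genes around the family were described from lists. Of 74 genes in 8 lists, 70 received an adjusted p and 32 passed, with 24 higher and 8 lower. Over all genes tested, 31.2% passed, with 17.7% higher and 13.5% lower, and the counts of each list stand against these shares. The lists were chosen with earlier results of these data known. The median log2 fold change of a list ran from -0.13 for the other BCL2 family genes to 0.22 for genes of MCL1 turnover. Of 7 other BCL2 family genes with an adjusted p, BOK, an effector related to BAX, fell by 0.54 on the log2 scale (SE 0.120, DESeq2 adjusted p 6.71e-05), with normalized counts of 664.6, 702.0 and 720.9 in shCtrl against 462.1, 470.1 and 506.5 in shPCBP1. The other 6, among them PMAIP1 (NOXA, log2 fold change 0.16, adjusted p 0.116), did not pass.

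Downstream of the mitochondria, 4 of 10 genes of the apoptosome and caspases passed, with 2 higher and 2 lower. CASP9, the caspase activated on the apoptosome, fell by 0.38 (SE 0.0651, DESeq2 adjusted p 9.55e-08), with 3165, 3208 and 3024 normalized counts in shCtrl and 2257, 2501 and 2462 in shPCBP1. CASP2 rose by 0.42 (SE 0.0476, adjusted p 5.88e-17) and PARP1, a caspase substrate, by 0.17. Of 7 inhibitor of apoptosis proteins and their antagonists, HTRA2 (0.31) and BIRC6 (0.19) rose and BIRC5, which encodes survivin, fell by 0.20. BIRC6 had a log2 fold change of -0.12 with transcript length offsets (adjusted p 0.385). Of 11 mitochondrial membrane partners, MFN2 and ENDOG rose (0.19 and 0.14) and DNM1L fell by 0.15, and the 3 VDAC channels did not pass. ENDOG did not pass under edgeR (adjusted p 0.0811), with length offsets (0.496), with coding transcripts only (0.0951) or without shCtrl replicate 1 or 2 or shPCBP1 replicate 2 or 3 (0.0885 to 0.125), and DNM1L did not with length offsets (0.148).

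In the death receptor branch, 2 of 9 genes rose and 2 fell. CASP8, which cuts BID, rose by 0.36 (SE 0.0742, DESeq2 adjusted p 1.25e-05), the receptor gene TNFRSF10A fell by 0.30 (SE 0.0607, adjusted p 6.91e-06) and the adaptor TRADD fell by 0.20 (adjusted p 0.0464). TRADD did not pass with coding transcripts only (adjusted p 0.0779), with the replicate block (0.126) or without any 1 library other than shCtrl replicate 1 (0.0687 to 0.172).

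Of 6 genes for MCL1 turnover, 4 rose and the other 2 did not pass, where 17.7% of all genes tested rose. The rises were led by GSK3A (0.46, SE 0.0449, DESeq2 adjusted p 1.83e-22), HUWE1 (0.30), a ubiquitin ligase of MCL1, and BTRC (0.29), which did not pass with length offsets (adjusted p 0.0607). USP9X rose by 0.15 (DESeq2 adjusted p 0.000261), and FBXW7 (0.05) and GSK3B (0.07) did not pass. The list was not split by the direction in which a gene acts on MCL1, so its count gives no direction for turnover. Of 9 transcription factors, 5 rose, led by E2F1 (0.45), NFKB1 (0.39) and FOXO3 (0.34), and DDIT3 fell by 0.30 (adjusted p 0.0202). DDIT3 did not pass under edgeR (adjusted p 0.0562), with a mean count of at least 50 (0.173), with length offsets (0.0551) or without shCtrl replicate 2 or shPCBP1 replicate 1 or 2 (0.0933 to 0.280), and without shCtrl replicate 2 its log2 fold change was -0.13. Of 11 splicing regulators of BCL2L1 and MCL1, 7 rose, led by PTBP1 (0.29, SE 0.0351, adjusted p 3.83e-15), HNRNPF (0.15) and HNRNPK (0.14), and the other 4, among them KHDRBS1 (SAM68) and HNRNPA1, did not pass. The median log2 fold change of this list was 0.11, beside 0.00187 over all genes with an adjusted p.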

How the data were processed

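Poly-A RNA from K562 cells was sequenced in 6 libraries, 3 for each group, and the labels gave the groups. Transcripts were quantified by the authors with Salmon 1.10.2, which gave the deposited estimated counts without normalization. The deposited TPM values, also made by the authors' Salmon run, are scaled on effective transcript length and sum to 1000000 in each library. The index annotation and strand setting were not given in the sources used here. Transcripts were matched by identifier to GENCODE release 44 (GRCh38), and unmatched ones held 0.136% to 0.147% of counts. Of 14 BCL2L11 transcripts, 4 matched in another version and were kept out of the forms.

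For each gene, the estimated counts of its transcripts were added and rounded, and genes with at least 10 counts over all libraries were tested with DESeq2 1.42.0 (two-sided Wald test, group as the term). The same test was run on transcripts. Forms were tested with limma 3.58.1 on the log2 ratio of a form to all other complete coding forms, with a pseudocount of 0.1 TPM and a mean count of at least 10 for each side. Fold changes are unshrunken. The 3 long or canonical shares and 10 coding shares were compared with exact permutation tests. Exon inclusion was computed from TPM, not junction reads, and was added after the transcript results were seen. Each test was tested on simulated data. Named were all 10 members and up to 3 passing genes of each other list by fold change. Member transcripts and forms were named from those averaging at least 1 TPM or 5% of the gene. These were 52 of the 103 transcripts, and not all of them are named. The VDAC genes, PMAIP1, KHDRBS1, HNRNPA1, DDIT3, USP9X, FBXW7, GSK3B, ALAS2, HBZ and GATA1, the transcripts BBC3-206 and MCL1-204, and genes that overlap a member, were named outside these rules after their values were seen. The members and lists were chosen with earlier results of these data known, and 1 list is not reported here.

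Libraries sharing a number did not deviate from their group means together (correlations of deviations 0.0387, 0.016 and -0.0331 over 16153 genes). Replicates differed by more than sampling noise (chi-square per degree of freedom 6.48 to 16.4). Alternatives covered edgeR 4.0.16, TMM factors, length offsets, count filters, pseudocounts, estimated counts, coding transcripts only, a replicate block and leaving out each library. Other versions were R 4.3.3 and Python 3.11.15.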

Additional observations from a re-analysis of the deposited data

How the results depend on the processing

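Members past the gene test numbered 4 (3 higher, 1 lower), and 1 (1 higher, 0 lower) with transcript length offsets, where BCL2L12, MCL1 and BCL2L11 had adjusted p-values of 0.873, 0.547 and 0.713. Leaving out 1 library gave 3 to 4 members, 2 to 3 higher and 1 to 2 lower, with BAD added without shPCBP1 replicate 3, and 4175 to 5145 genes in all. The replicate block gave 3 members, 4297 genes and 11 member transcripts, and among the members, their transcripts and forms and the other genes recomputed it changed no call other than those of BCL2L12 (adjusted p 0.0591), BAX-203 (0.112) and TRADD (0.126). Member transcripts past the test numbered 12, and 1 under edgeR, which passed 683 of all transcripts against 9811. Leaving out 1 library gave 11 to 16. Member forms called were 0, and 1 (BAX alpha) with a pseudocount of 1 TPM or a mean count of at least 50. The difference in BCL2L1 long share ranged from -3.73 to -2.64 percentage points without 1 library, that in MCL1 long share from 0.698 to 1.07 (0.118 on estimated counts), and that in BCL2L11 canonical share from -9.24 to 6.68. Genes with a coding share not overlapping numbered 2 by TPM and 1 by estimated counts, and 2 to 3 without 1 library. BCL2L1 turned to -0.00385 with coding transcripts only and BIRC6 to -0.116 with length offsets, and BBC3 ranged from -0.233 to 0.172 without 1 library, the latter without shCtrl replicate 2. Of 130 alternative values for single members, 117 kept direction and side of the threshold. Higher calls were 56.7% of all calls, and 52.1% with TMM factors. BCL2 had the lowest mean normalized count of the 10 genes, 230.1.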
